A study of Mus musculus with 2 samples.

Results

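The S100 and annexin genes described here are 9 named members, S100a4, S100a6, S100a10, S100a11, S100a13, Anxa1, Anxa2, Anxa5 and Anxa6, out of 31053 genes in the count table, of which 16464 were detected in the cells kept. They were measured in donor T cells recovered from the colon in a mouse model of graft-versus-host disease, in which allogeneic T cells attack the tissues of the transplant recipient. Recipients were lethally irradiated Balb/c mice given 5000000 bone marrow cells from C57BL/6 (B6) donors together with B6 splenocytes adjusted to 800000 alpha beta T cells. On day 21, cells dissociated from the colons of 5 recipients were pooled and sorted as H2-Kb+ TCR-B+, and 1 RNA library and 1 TCR library were made from the same cDNA. Every cell group below therefore comes from transplanted and irradiated hosts, no untreated or syngeneic group is used, and the pool counts as 1 sample. Cells are not replicates, so the comparisons carry counting intervals and no p-value, and the labels tie neither cells nor clonotypes to a mouse.

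S100 proteins are small calcium-binding proteins with EF-hand motifs that act as dimers on target proteins. Annexins bind acidic phospholipids of membranes when calcium is present. The families meet in complexes: S100A10 binds annexin A2, S100A11 binds annexin A1, and the S100A10-annexin A2 heterotetramer recruits plasminogen and its activator at the cell surface. S100A4 binds non-muscle myosin and is linked to cell motility, S100A6 (calcyclin) is linked to proliferating and activated cells, and S100A13 takes part in the release of proteins that lack a signal peptide. Annexin A1 acts through formyl peptide receptors and can limit inflammation, annexin A5 binds exposed phosphatidylserine, and annexin A6 is linked to membrane traffic and cholesterol. In T cells, S100a4, S100a6, S100a10, S100a11, Anxa1 and Anxa2 are commonly listed among the genes that are higher in effector and memory cells than in naive cells.

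On mm10, S100a13 (chromosome 3, 90514435 to 90524581), S100a4 (chromosome 3, 90603771 to 90606045) and S100a6 (chromosome 3, 90612882 to 90624181) lie close together on the forward strand. S100a11 (chromosome 3, 93520488 to 93526287) and S100a10 (chromosome 3, 93555080 to 93564643) form a separate neighbouring pair on the same chromosome, and Anxa5 (chromosome 3, 36448923 to 36475894, reverse strand) is far from both. Anxa1 lies on chromosome 19 (20373428 to 20390944, reverse strand), Anxa2 on chromosome 9 (69453620 to 69491795, forward strand) and Anxa6 on chromosome 11 (54979108 to 55033445, reverse strand). The annotation places Gm42674 over S100a4 on the same strand; Gm42674 had 0 UMIs, and the sources do not state how reads shared by both were assigned. The antisense Gm16144 over Anxa2 had 4 UMIs.

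Promoter windows, from 250 bases before to 50 bases after the RefSeq start on GRCm38.p6, were found for 7 of the 9 members. The windows of S100a4, S100a6, Anxa1 and Anxa2 are shown because these members differed most between the cell groups below. All are written on the strand of the gene, and capitals mark matches on either strand to 5 motifs, which are the TATA box motif TATAAA, the GC box motif GGGCGG, the AP-1 motif TGANTCA, the GATA factor motif AGATAA and the RUNX factor motif TGTGGT.
S100a4, chr3:90603520-90603819, forward strand: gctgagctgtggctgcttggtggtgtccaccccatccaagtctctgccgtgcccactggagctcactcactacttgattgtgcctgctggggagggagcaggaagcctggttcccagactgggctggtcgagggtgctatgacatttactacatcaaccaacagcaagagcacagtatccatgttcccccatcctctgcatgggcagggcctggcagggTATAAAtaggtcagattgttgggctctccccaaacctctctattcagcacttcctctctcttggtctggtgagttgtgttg
S100a6, chr3:90612644-90612943, forward strand: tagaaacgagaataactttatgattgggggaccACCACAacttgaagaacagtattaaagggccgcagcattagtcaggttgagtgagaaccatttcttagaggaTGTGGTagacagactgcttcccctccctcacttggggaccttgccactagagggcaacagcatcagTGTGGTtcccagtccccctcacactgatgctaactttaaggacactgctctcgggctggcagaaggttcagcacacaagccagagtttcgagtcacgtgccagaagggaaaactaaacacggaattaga
Anxa1, chr19:20390622-20390921, reverse strand: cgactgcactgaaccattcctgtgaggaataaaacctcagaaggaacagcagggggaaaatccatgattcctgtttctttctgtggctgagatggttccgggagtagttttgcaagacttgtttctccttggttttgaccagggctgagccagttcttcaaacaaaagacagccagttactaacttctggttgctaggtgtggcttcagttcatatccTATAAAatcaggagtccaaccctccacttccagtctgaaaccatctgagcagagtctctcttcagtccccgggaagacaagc
Anxa2, chr9:69453433-69453732, forward strand: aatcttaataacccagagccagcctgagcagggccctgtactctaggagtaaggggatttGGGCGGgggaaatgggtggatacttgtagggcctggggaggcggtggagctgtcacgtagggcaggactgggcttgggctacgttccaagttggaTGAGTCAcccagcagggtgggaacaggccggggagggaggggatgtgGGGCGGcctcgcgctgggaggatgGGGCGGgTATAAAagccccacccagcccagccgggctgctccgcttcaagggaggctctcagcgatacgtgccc
The S100a4 window holds 1 TATAAA match starting 31 bases before the start, and the Anxa1 window holds 1 starting 32 bases before it. The S100a6 window holds no TATAAA match and 3 RUNX matches, starting 217, 145 and 79 bases before the start. The Anxa2 window holds 3 GC box matches, 1 AP-1 match and 1 TATAAA match, and no marked matches overlap. Over all 32817 promoters of the same length, the TATA box motif matched in 13.6%, the GC box motif in 35.6%, the AP-1 motif in 7.81%, the GATA factor motif in 11.2% and the RUNX factor motif in 16.8%. A match is a description of these letters and not evidence of a bound site.

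The RNA library held 5348 barcodes, of which 5333 were kept, with 2549 to 39138 unique molecular identifiers (UMIs, counts of single mRNA molecules) per cell and a median of 4800 UMIs and 1804 genes. A UMI of a T cell marker (Cd3e, Cd3d, Cd3g, Trac, Trbc1 or Trbc2) was found in 5312 kept cells (99.6%). The titles name CD4 T cells, but the described sort had no CD4 gate: 1861 cells had Cd4 UMIs and no Cd8a or Cd8b1 UMI (CD4 class, 34.9%), and 2391 cells had Cd8a or Cd8b1 UMIs and no Cd4 UMI (CD8 class, 44.8%). Of the others, 301 cells had both and 780 had neither. A clonotype was assigned to 2628 kept cells, in 826 clonotypes. Levels are summed UMIs of a group per 10000 UMIs of that group, given with 95% intervals that cover counting error only.

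CD4 class cells held less S100a6 than CD8 class cells, and it was the only member past 1.5-fold. S100a6 stood at 13.2 UMIs per 10000 in CD4 class cells and 23.6 in CD8 class cells, a ratio of 0.560 (0.550 to 0.571). After each cell was thinned to 2000 UMIs, 71.4% of CD4 class cells and 88.0% of CD8 class cells had an S100a6 UMI, so the gap is in how many cells carried a UMI as well as in the summed level. No cell type in the library is known to lack these genes, so no background share is set beside such shares. Over all 10130 genes with at least 50 UMIs in both classes together, 14.9% were past 1.5-fold in either direction, against 1 of the 9 members.

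Among the annexins, Anxa2, the partner of S100A10, stood at 3.31 (3.21 to 3.42) in CD4 class cells and 4.90 (4.79 to 5.02) in CD8 class cells, a ratio of 0.676 (0.649 to 0.703). Anxa1 was at 0.221 (0.195 to 0.251) in CD4 class cells and 0.319 (0.291 to 0.349) in CD8 class cells, a ratio of 0.694 (0.593 to 0.812). Anxa5 went the other way, with 0.980 in CD4 class cells and 0.753 in CD8 class cells and a ratio of 1.30 (1.20 to 1.42). Anxa1 and Anxa2 were thus lower and Anxa5 higher in the CD4 class, all with intervals clear of 1 and all inside 1.5-fold over whole classes. Within clusters the log2 ratio of Anxa2 was -0.0018, against -0.57 over whole classes, and that of Anxa1 was -0.13, against -0.53, while that of Anxa5 was 0.45. Most clusters held few cells of 1 class, such as 15 CD4 and 1247 CD8 class cells in cluster 1 and 633 and 19 in cluster 2. The most mixed were clusters 5 (278 CD4 and 68 CD8 class cells) and 9 (35 and 167). Ratios within clusters, for every member, thus rest in most clusters on few cells of 1 class. S100a10, the partner of annexin A2, was nearly level between the classes at 11.05 in CD4 and 11.4 in CD8 class cells (ratio 0.971, 0.949 to 0.994), so Anxa2 and S100a10 did not show the same gap. The remaining ratios were 1.08 for S100a11, 0.911 for Anxa6, 1.04 for S100a4 and 1.02 for S100a13, and those of S100a4 and S100a13 had intervals that span 1. S100a6 kept the lower CD4 level in all 21 alternatives but fell by 0.37 on the log2 scale within clusters, against 0.84 over whole classes, and the log2 ratio of Anxa1 was 0.43 when each clonotype counted equally. Summed macrophage or monocyte markers, with all 10 genes detected in both classes and 8 of 10 higher in the CD4 class, stood at 2.22 in CD4 and 1.35 in CD8 class cells; the log2 ratio of S100a6 was -0.84 also without cells holding 2 or more macrophage genes.

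**Figure D1:**
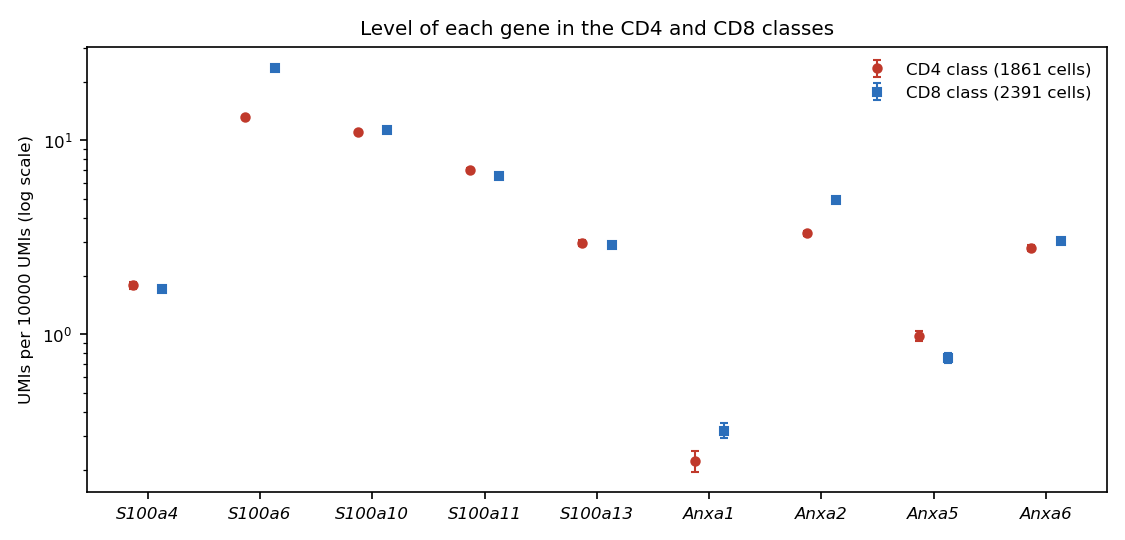
Level of each member (UMIs per 10000 UMIs, log scale) in 1861 CD4 class cells (red circles) and 2391 CD8 class cells (blue squares), with exact Poisson 95% intervals, many of them smaller than the markers. S100a6 shows the widest gap, at 13.2 for CD4 class cells and 23.6 for CD8 class cells, and the axis compares classes within a gene, not genes with each other.

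Clustering of the kept cells gave 10 groups, used here for description only. The clusters were built from variable genes of the same 1 library, and the members were not held out. Clusters 8 (Gzmf, Gzmd and Prf1) and 9 (Hspa1a, Itgae and Gzma) were CD8 cytotoxic-like, each with 6 of 8 listed markers 2-fold up. Cluster 1 (Ccl5 and Ly6c2) was mostly of the CD8 class. Its markers from that list were Cd8a, Cd8b1 and Ccl5, 3 of 8, without a granzyme or Prf1. Cluster 2 was Th17-like (Il17re and Il22) and 4 was Th2-like (Il4 and Il1rl1). Clusters 3 and 6 were cycling cells mostly of the CD8 and of the CD4 class. Heat shock gene Hspa1a led cluster 9, which also held 3 interferon response markers. Clusters 5 (Penk, Dusp14, Csf2 and Ccl1) and 7 (Il10, Foxp3 and Slamf6) were left by number, and cluster 10 was macrophage-like with 10 of 10 markers, although 5 of 5 fibroblast markers and 3 neutrophil markers were also 2-fold up in its 40 cells.

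S100a6 had its highest level among clusters 1 to 9 in cluster 8, the granzyme-rich group, at 41.2 (40.3 to 42.1), and its lowest in cluster 6, cycling CD4 cells, at 9.10 (8.83 to 9.37), a 4.53-fold range. From high to low the order of S100a6 was 8, 9, 1, 7, 3, 5, 4, 2 and 6, and only 1 of the 8 neighbouring pairs overlapped in its intervals. The 3 highest clusters were the CD8 cytotoxic-like clusters 8 and 9 and the CD8-rich cluster 1. Cluster 7, mostly CD4 class, came next at 20.1.

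S100a4, the motility-linked member, had a different profile: 2.46 (2.26 to 2.69) in cluster 8 and 2.45 (2.15 to 2.78) in cluster 9 were followed by 2.22 (2.08 to 2.36) in the Th17-like cluster 2, and the Th2-like cluster 4 was lowest at 0.856 (0.746 to 0.979). The Th17-like cluster was thus next to last in S100a6 and near the top in S100a4. S100a4 in the other CD4-rich clusters 5, 6 and 7 lay between 1.78 and 1.80 with overlapping intervals.

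S100a10 ranged from 15.7 in cluster 8 to 9.47 in cluster 5, a 1.65-fold span, and S100a13 was the most even member at 1.43-fold. S100a11 was highest in cluster 9 at 10.6 (10.0 to 11.3), with cluster 7 at 9.66, and lowest in cluster 6 at 4.85, a 2.20-fold span. Both cycling clusters held the 2 lowest S100a11 levels.

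Anxa1, the formyl peptide receptor ligand, had the widest span of the annexins, from 0.887 (0.764 to 1.02) in cluster 8 to 0.0595 (0.0272 to 0.113) in cluster 7, or 14.9-fold. Its next highest level was in the Th2-like cluster 4 at 0.486 (0.404 to 0.580), the cluster where S100a4 was lowest. Anxa2 was highest in cluster 8 at 6.86 and then in cycling cluster 3 at 5.55, and lowest in clusters 2 and 4 at 2.18 and 1.98. Anxa5 and Anxa6 varied 2.01-fold and 1.60-fold, and 7 of 8 neighbouring pairs overlapped for each. The 40 cells of cluster 10 stood above every T cell cluster in Anxa1 (1.30) and Anxa5 (2.81) and below every one in S100a10 (5.93), S100a13 (1.78) and Anxa6 (0.840).

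**Figure D2:**
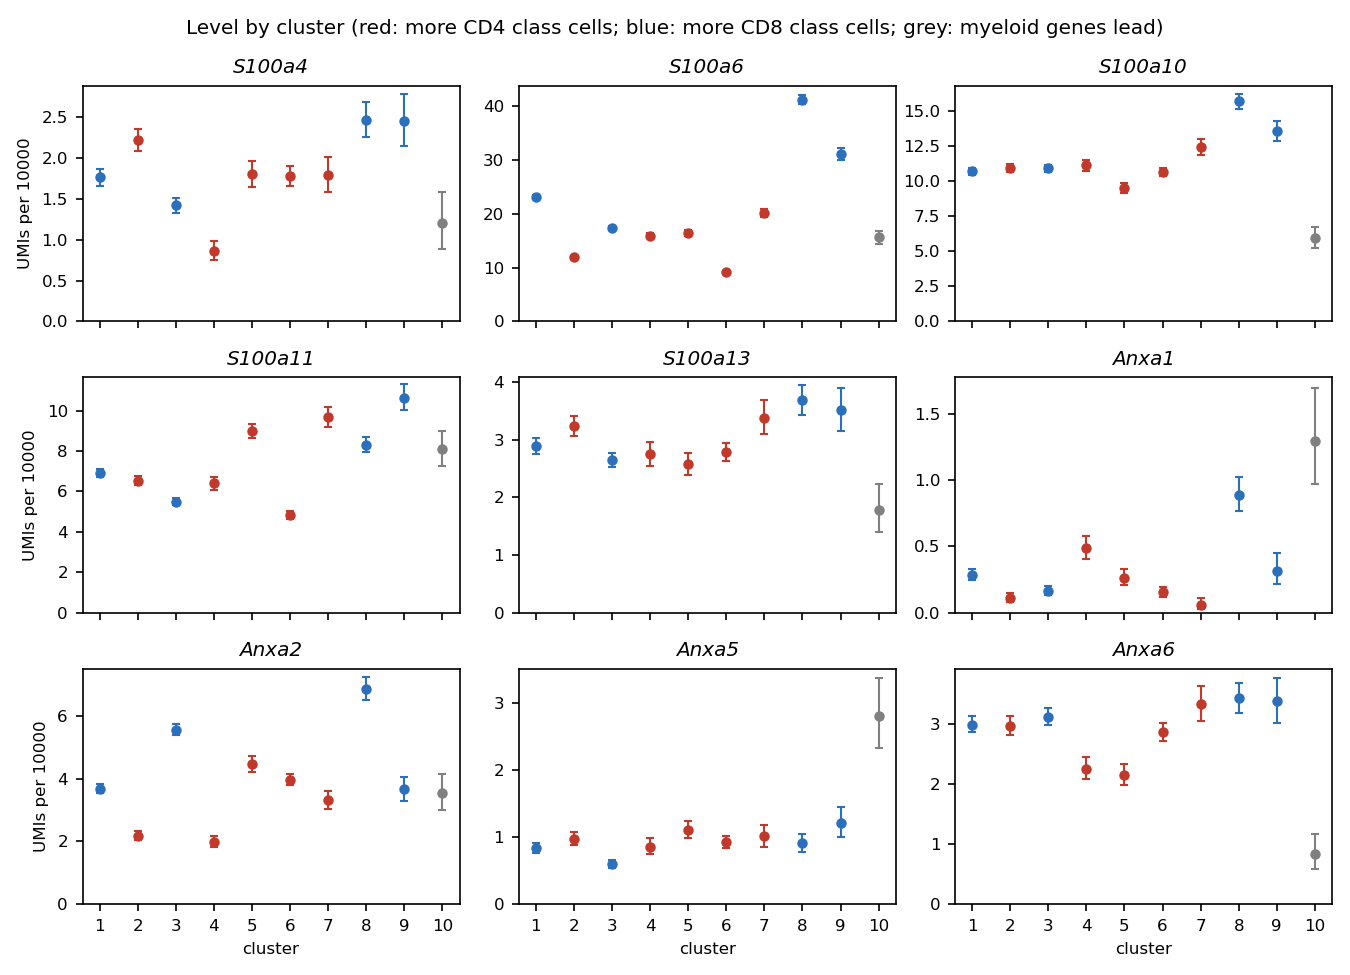
Level of each member (UMIs per 10000 UMIs, linear axis from 0) in each of the 10 clusters with exact Poisson 95% intervals; red clusters hold more CD4 class cells, blue clusters more CD8 class cells, and grey cluster 10 is led by myeloid genes. S100a6 peaks in cluster 8 at 41.2, S100a4 is lowest in cluster 4 at 0.856, and S100a13 is the flattest over clusters 1 to 9.

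GM-CSF, the product of Csf2, is the cytokine named in the title of the study, and Csf2-positive CD4 class cells (192 cells) were set against Csf2-negative ones (1669 cells), called at 2000 UMIs per cell. Summed over cells, Csf2-positive cells had less S100a4 and more Anxa1, S100a6, S100a11 and Anxa2. S100a4 was at 1.17 (0.982 to 1.37) in Csf2-positive and 1.86 (1.78 to 1.95) in Csf2-negative cells, a ratio of 0.625 (0.523 to 0.742). Anxa1 was at 0.320 (0.228 to 0.438) in Csf2-positive and 0.209 (0.182 to 0.240) in Csf2-negative cells, a ratio of 1.53 (1.06 to 2.16) that rests on 39 UMIs in 25 Csf2-positive cells. These 2 members were past 1.5-fold, where 18.0% of 8916 genes were.

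S100a6 reached 17.0 in Csf2-positive and 12.7 in Csf2-negative cells, a ratio of 1.34 (1.28 to 1.40). The ratios of S100a11 and Anxa2 were 1.18 (1.11 to 1.27) and 1.20 (1.09 to 1.32), that of Anxa6 was 0.850 (0.750 to 0.959), and those of S100a10, S100a13 and Anxa5 spanned 1. S100a6 and S100a4 therefore lay on opposite sides of 1. The log2 ratio of S100a4 stayed negative in all 22 alternatives, from -0.80 to -0.44, and was inside 1.5-fold in some, while that of Anxa1 turned to -0.24 with clonotypes weighted equally and to -0.16 within clusters. With clonotypes weighted equally the log2 ratios of S100a6 and S100a11 were 0.03 and 0.01, against 0.42 and 0.24 over cells, and without cycling cells they were 0.16 and 0.04. The summed macrophage or monocyte markers stood at 5.34 in Csf2-positive cells, with 9 of 10 detected, and 1.84 in Csf2-negative cells, with 10 of 10; without cells holding 2 or more macrophage genes the log2 ratios were -0.78 for S100a4 and 0.56 for Anxa1. Dissociation stress genes differed as well, with 11 of 14 intervals above 1 in Csf2-positive cells, where 8.48% of all genes had one, and a median log2 ratio of 0.53, and their part in these differences was not tested.

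Interferon gamma is the signature cytokine of type 1 responses. In the CD4 class, Ifng-positive cells (405) held more S100a4, Anxa2 and S100a6 than Ifng-negative cells (1456), and no member was past 1.5-fold, against 6.01% of genes. S100a4 was at 2.23 (2.04 to 2.42) in Ifng-positive and 1.66 (1.58 to 1.75) in Ifng-negative CD4 cells, a ratio of 1.34 (1.21 to 1.48). The ratios were 1.26 (1.17 to 1.35) for Anxa2 and 1.13 (1.08 to 1.17) for S100a6, and the other 6 members spanned 1. With clonotypes weighted equally the log2 ratios were 0.17 for S100a4, 0.09 for Anxa2 and 0.08 for S100a6. Of the 14 dissociation stress genes, 8 had intervals above 1 and 4 were past 1.5-fold higher in Ifng-positive CD4 cells, and macrophage or monocyte markers summed to 1.42 in Ifng-positive and 2.45 in Ifng-negative CD4 cells, with 8 of 10 and 10 of 10 detected and 0 of 10 higher in Ifng-positive cells; their part was not tested. Set beside the Csf2 comparison, S100a4 was higher in Ifng-positive and lower in Csf2-positive cells; the same CD4 class cells enter both, and the difference was not tested.

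In the CD8 class, Anxa1 was the member past 1.5-fold between Ifng-positive (579) and Ifng-negative (1812) cells, where 5.15% of genes were. Anxa1 stood at 0.453 (0.387 to 0.528) in Ifng-positive and 0.276 (0.246 to 0.308) in Ifng-negative CD8 cells, a ratio of 1.64 (1.35 to 1.99). A single clonotype with 26 of these Ifng-positive cells held 26.1% of their Anxa1 UMIs, and with clonotypes weighted equally the log2 ratio was -0.33. S100a6 was at 27.0 (26.5 to 27.5) in Ifng-positive and 22.5 (22.2 to 22.8) in Ifng-negative CD8 cells, a ratio of 1.20 (1.17 to 1.23), and S100a4 had a ratio of 1.16 (1.06 to 1.27). With clonotypes weighted equally the log2 ratio of S100a6 was 0.05, against 0.26 over cells. S100a10, S100a11 and Anxa2 were higher by less, at 1.04, 1.09 and 1.08, and S100a13, Anxa5 and Anxa6 spanned 1. The dissociation stress list had 12 of 14 intervals above 1 in Ifng-positive CD8 cells, and macrophage or monocyte markers summed to 0.572 in Ifng-positive and 1.60 in Ifng-negative CD8 cells, with 9 of 10 and 10 of 10 detected; their part was not tested.

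CD4 cells with a UMI of Il17a, Il17f or Il22 (60 cells, called Il17-positive) had more S100a4 than the other 1801 CD4 class cells. The median depth was 5691 UMIs in Il17-positive and 4735 in Il17-negative cells, and the part of depth was not tested. S100a4 was at 3.06 (2.55 to 3.63) in Il17-positive and 1.74 (1.66 to 1.82) in Il17-negative cells, a ratio of 1.76 (1.46 to 2.10), and 40.0% of Il17-positive against 24.9% of Il17-negative cells had a thinned UMI. The log2 ratio was positive in all 22 alternatives, from 0.62 to 1.04. Anxa2 had a ratio of 0.680 (0.550 to 0.831) and S100a11 one of 0.761 (0.664 to 0.868), both lower in Il17-positive cells. Classes set without thinning gave Anxa2 a log2 ratio of -0.0480, against -0.56, and S100a11 stayed between -0.79 and -0.23. S100a6 had a ratio of 0.893 (0.815 to 0.976), but 1 cell held 15.9% of the S100a6 UMIs of Il17-positive cells, and the log2 ratio lay between -0.85 at 1000 UMIs and 0.09 within clusters, with 20 of 22 alternatives negative; S100a10, S100a13, Anxa5 and Anxa6 spanned 1. Anxa1, with 4 UMIs in Il17-positive cells, was at a ratio of 0.415 whose interval of 0.112 to 1.08 spans 1. S100a4 and Anxa1 were past 1.5-fold, where 27.8% of genes were in this small class. Macrophage or monocyte markers summed to 0.376 in Il17-positive and 2.30 in Il17-negative cells, with 6 of 10 and 10 of 10 detected, and 5 of 14 dissociation stress intervals were below 1 in Il17-positive cells; their part was not tested, and without cells holding 2 or more macrophage genes the log2 ratio of S100a4 was 0.81.

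CD4 cells with a UMI of Il4, Il5 or Il13, the type 2 cytokines (75 cells), had less S100a4 than the other 1786 cells. The median depth was 5568 UMIs in type 2-positive and 4734 in type 2-negative cells, and the part of depth was not tested. S100a4 was at 0.545 (0.353 to 0.804) in type 2-positive and 1.84 (1.76 to 1.92) in type 2-negative cells, a ratio of 0.296 (0.191 to 0.438). The log2 ratio of S100a4 stayed negative in all 22 alternatives, from -2.52 to -0.54. The smallest gap came with clonotypes weighted equally, which put S100a4 inside 1.5-fold. Anxa2 was at 2.22 (1.81 to 2.70) in type 2-positive and 3.36 (3.25 to 3.47) in type 2-negative cells, a ratio of 0.662 (0.538 to 0.805). Its log2 ratio was negative in all 22 alternatives, from -0.92 to -0.13, and the smallest gap, at 1000 UMIs, was inside 1.5-fold. S100a6 had a ratio of 0.895 (0.820 to 0.975), with log2 ratios between -0.61 without cycling cells and 0.12 at 1000 UMIs, and the intervals of S100a10, S100a11, S100a13, Anxa5 and Anxa6 spanned 1. Anxa1, on 6 UMIs, had a ratio of 0.580 (0.211 to 1.28) that spans 1 and that reversed under 4 alternatives. These 3 members were past 1.5-fold, where 33.3% of genes were, so the count itself is near the background. Macrophage or monocyte markers summed to 1.05 in type 2-positive and 2.28 in type 2-negative cells, with 6 of 10 and 10 of 10 detected. In type 2-positive cells 7 of 14 dissociation stress intervals were above 1, with 4 genes past 1.5-fold higher, and 11 of 12 actin gene intervals were below 1; the part of these differences was not tested. Without cells holding 2 or more macrophage genes the log2 ratio of S100a4 was -1.90. S100a4 was thus high in Il17-positive and low in type 2-positive CD4 cells, on the same sides as in the Th17-like and Th2-like clusters, which share these cells.

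Il10-positive CD4 cells (50) had no Anxa1 UMI, against 246 UMIs or 0.226 per 10000 in 1811 Il10-negative cells. Against a floor of 3 UMIs over the class, Anxa1 was at least 1.68-fold lower in Il10-positive cells, while the 95% interval of the ratio reaches up to 0.739, which allows a smaller gap. With cells of 2 or more Cd4 or Cd8 UMIs the floor gave a log2 ratio of -0.01, so the data then set no bound on Anxa1. Anxa2 was at 2.07 (1.51 to 2.76) in Il10-positive and 3.34 (3.23 to 3.45) in Il10-negative cells, a ratio of 0.619 (0.452 to 0.828), and S100a6 was at 18.7 (16.9 to 20.6) in Il10-positive and 13.1 (12.9 to 13.3) in Il10-negative cells, a ratio of 1.43 (1.29 to 1.57). Within clusters the log2 ratio of S100a6 was 0.08, against 0.51 over the whole class. Anxa1 and Anxa2 were past 1.5-fold, where 40.1% of genes were. The median depth was 3764.5 UMIs in Il10-positive and 4813 in Il10-negative cells, and macrophage or monocyte markers summed to 0.854 in Il10-positive and 2.25 in Il10-negative cells, with 5 of 10 and 10 of 10 detected; their part was not tested. Classes set without thinning gave Anxa2 a log2 ratio of -0.19, against -0.69.

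**Figure D3:**
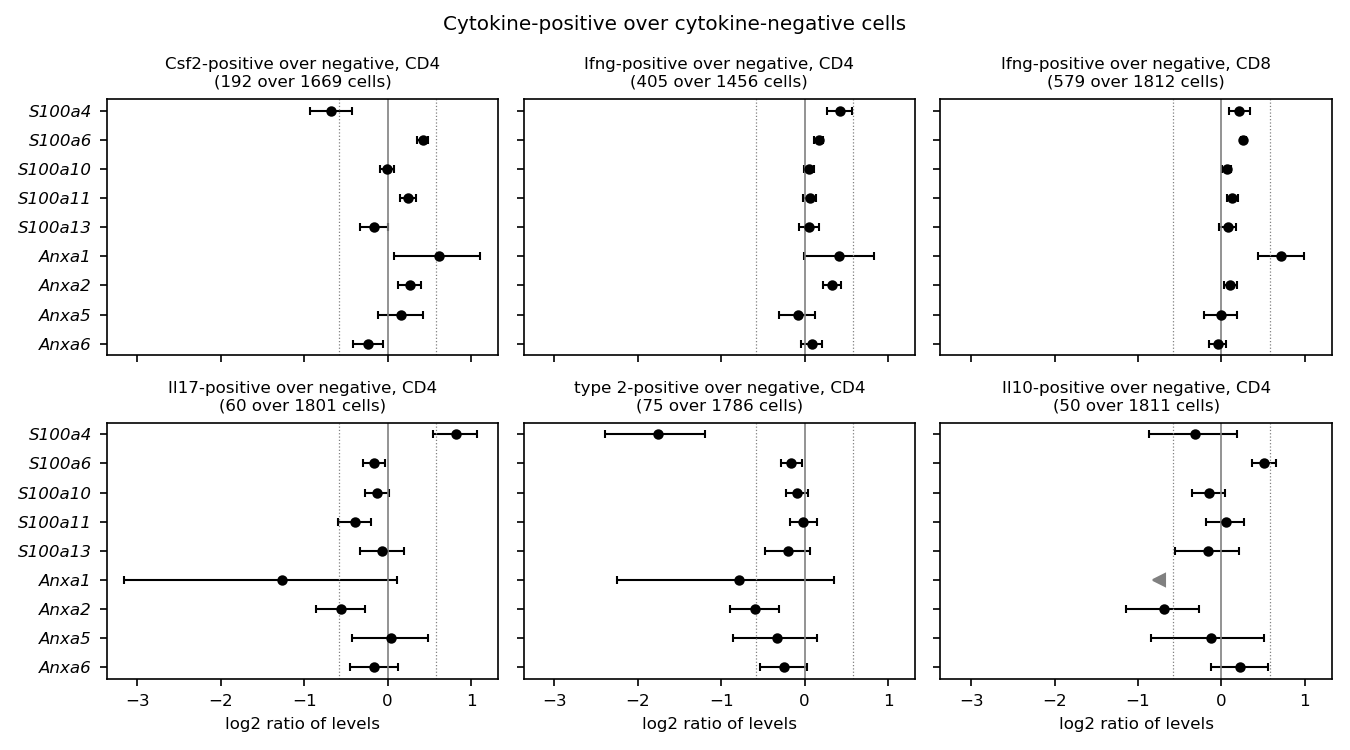
log2 ratio of each member in cytokine-positive over cytokine-negative cells in 6 comparisons, with exact conditional binomial 95% intervals; the solid line marks 0, the dotted lines 1.5-fold either way, and the grey triangle the bound for Anxa1 in Il10-positive cells, where no UMI was found. S100a4 lies left of 0 in Csf2-positive (-0.68) and type 2-positive (-1.76) CD4 cells and right of 0 in Ifng-positive (0.42) and Il17-positive (0.81) CD4 cells.

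A clonotype is a set of cells with the same TCR chains, and expanded clonotypes, with 2 or more kept cells, were set against clonotypes of 1 cell. In the CD4 class, expanded clonotypes (672 cells) had more S100a4 and less Anxa1 and S100a6 than single-cell clonotypes (213 cells). Anxa1 was at 0.138 (0.105 to 0.178) in expanded and 0.468 (0.363 to 0.593) in single-cell CD4 clonotypes, a ratio of 0.295 (0.204 to 0.424), with a thinned UMI in 2.53% of expanded and 8.92% of single-cell clonotype cells. S100a4 was at 2.07 (1.93 to 2.21) in expanded and 1.33 (1.15 to 1.54) in single-cell CD4 clonotypes, a ratio of 1.55 (1.32 to 1.82). These 2 members were past 1.5-fold, where 9.91% of genes were.

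The log2 ratio of Anxa1 was between -2.50 and -1.37 in all 20 alternatives, and -1.54 within clusters; that of S100a4 was between 0.52 and 0.75, with the lowest without cycling cells. S100a6 stood at 12.4 (12.1 to 12.8) in expanded and 16.1 (15.5 to 16.8) in single-cell CD4 clonotypes, a ratio of 0.772 (0.735 to 0.811), and S100a11 had a ratio of 0.907. Both genes that were past 1.5-fold thus kept their direction, in opposite senses. Macrophage or monocyte markers summed to 1.495 in expanded and 1.91 in single-cell CD4 clonotypes, with 9 of 10 detected in each, and without cells holding 2 or more of them the log2 ratio of Anxa1 was -1.71.

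Over bins of clone size in the CD4 class, Anxa1 was at 0.468 (0.363 to 0.593) in clonotypes of 1 cell, 0.348 in those of 2 to 4, 0.0566 in those of 5 to 9 and 0.0895 in those of 10 or more. The step lay between 2 to 4 and 5 to 9 cells, where the intervals (0.236 to 0.494 and 0.0154 to 0.145) do not overlap. It rests on 31 Anxa1 UMIs in 132 cells and 4 UMIs in 105 cells, and the intervals do not cover the spread between clonotypes. S100a4 in the same bins was 1.33, 1.75, 2.43 and 2.07. S100a6 was 16.1, 12.8, 8.07 and 13.5, so the largest clonotypes stood above those of 5 to 9 cells and S100a6 did not follow clone size throughout.

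In the CD8 class no member was past 1.5-fold between expanded (1028 cells) and single-cell (242 cells) clonotypes, against 7.46% of genes. The intervals of 5 members were above 1, as were those of 6.28% of all genes: the ratios were 1.15 (1.09 to 1.20) for S100a10, 1.27 (1.04 to 1.58) for Anxa5, 1.16 (1.05 to 1.27) for Anxa6, 1.11 (1.03 to 1.20) for Anxa2 and 1.07 (1.04 to 1.11) for S100a6. Without cycling cells the log2 ratios of S100a6 and Anxa2 were -0.05 and -0.03. Anxa1 was at 0.363 (0.320 to 0.410) in expanded and 0.271 (0.201 to 0.358) in single-cell CD8 clonotypes, a ratio of 1.34 that spans 1 and became a log2 ratio of -0.31 without the clonotype of 80 cells described below and -0.63 with clonotypes weighted equally. The dissociation stress list had 12 of 14 intervals below 1 in expanded CD8 clonotypes, with a median log2 ratio of -0.49, and its part was not tested.

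**Figure D4:**
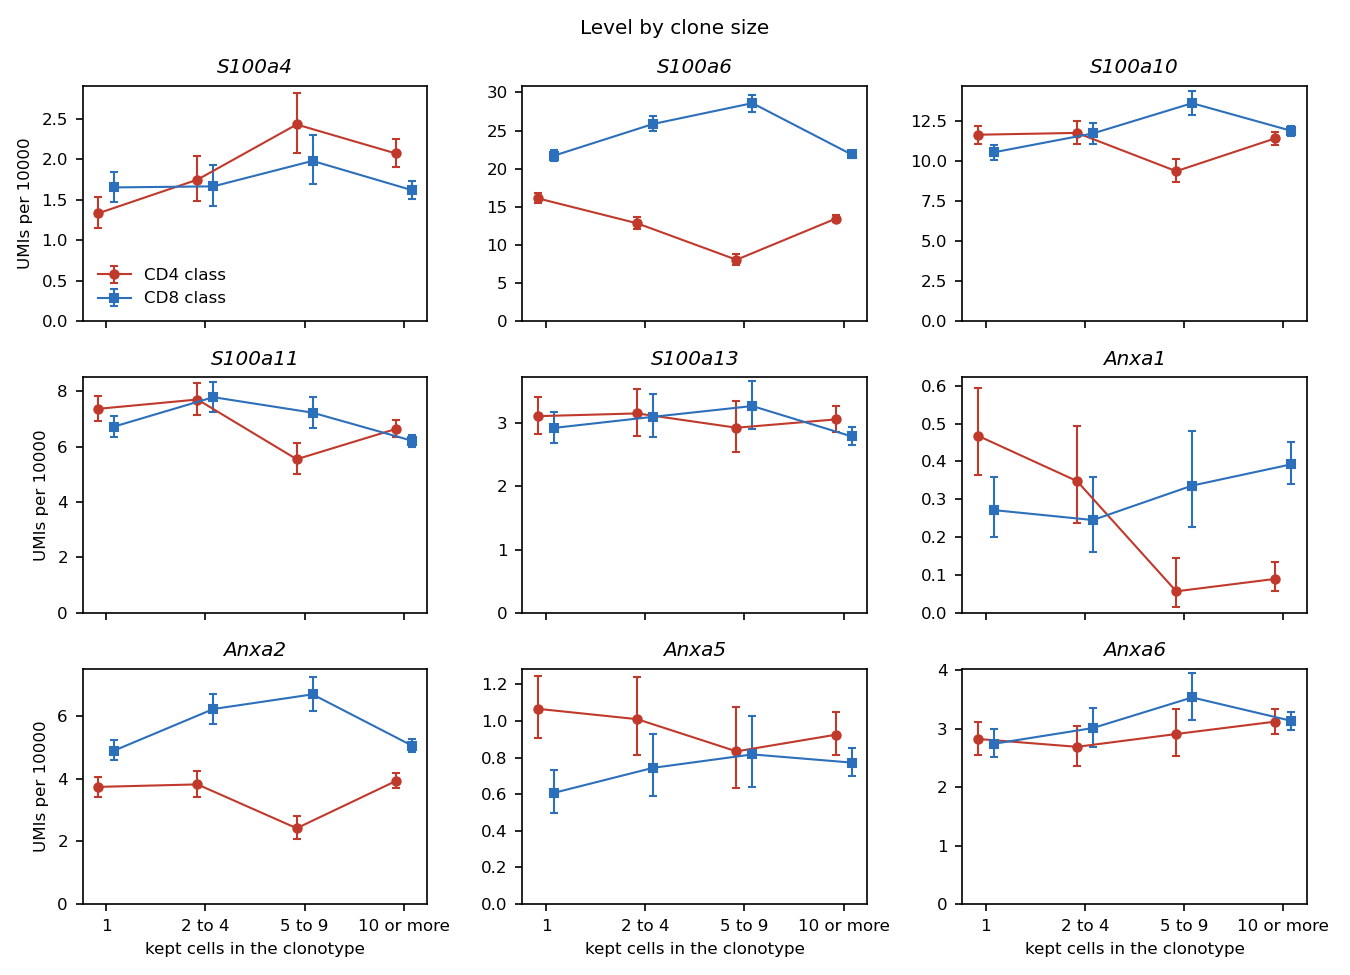
Level of each member (UMIs per 10000 UMIs, linear axis from 0) by the number of kept cells in the clonotype, for CD4 class cells (red circles) and CD8 class cells (blue squares), with exact Poisson 95% intervals. Anxa1 in the CD4 class is 0.468 in clonotypes of 1 cell and 0.0895 in those of 10 or more, and CD4 levels of S100a6 lie below the CD8 levels in every bin.

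S100a6 varied widely over single clonotypes with at least 10 class cells. Over 16 CD4 clonotypes (median 15.5) it ranged from 3.37 (2.35 to 4.69, 12 cells) to 30.2 (26.1 to 34.8, 13 cells). Over 20 CD8 clonotypes (median 23.2) it ranged from 5.09 (3.65 to 6.91, 14 cells) to 44.8 (42.9 to 46.8, 80 cells). A range over many small groups cannot be set against the gap between 2 large classes. The largest CD8 clonotype, with 259 class cells, was at 11.9 S100a6 UMIs per 10000, as was the next, with 87 cells. The clonotypes of 80 and 54 cells were at 44.8 and 44.4. The 2 largest CD8 clonotypes thus lay below the whole CD4 class and the next 2 far above both classes. Cluster 1, at 23.1, held 68.0% of the 259-cell and 53.8% of the 80-cell clonotype. Cycling cluster 3, at 17.4, held 55.2% of the 87-cell clonotype. Cluster 8, at 41.2, held 72.2% of the 54-cell clonotype, whose level was near that of this cluster.

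Between the 80-cell and 259-cell clonotypes the gap was not only between clusters. Within cluster 1 alone, 43 cells of the 80-cell clonotype had S100a6 at 44.8 (42.0 to 47.7), while 176 cells of the 259-cell clonotype had 13.8 (13.02 to 14.6). S100a4 in the same cells was 3.58 (2.84 to 4.46) in the 80-cell and 1.48 (1.23 to 1.77) in the 259-cell clonotype, and S100a10 was 18.9 (17.1 to 20.8) in the 80-cell and 10.5 (9.78 to 11.2) in the 259-cell clonotype. Anxa2 was 6.12 (5.13 to 7.24) in the 80-cell and 2.88 (2.53 to 3.27) in the 259-cell clonotype. All 4 genes were higher in the 80-cell clonotype with intervals that do not overlap; clonotype and mouse cannot be told apart.

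Anxa1 UMIs lay unevenly over these clonotypes. In cluster 1 it was at 2.49 (1.88 to 3.25) in the 80-cell and 0.0365 (0.00753 to 0.107) in the 259-cell clonotype. Over the class, the 80-cell clonotype made up 3.35% of CD8 class cells and held 23.6% of their Anxa1 UMIs, whereas the 259-cell clonotype made up 10.8% of cells and held 0.837% of the UMIs. No Anxa1 UMI was found in 8 of the 16 CD4 and 9 of the 20 CD8 clonotypes. Anxa1 was the sparsest member, with 892 UMIs over all kept cells against 2920 to 60035 for the others, so a count of 0 in a clonotype of few cells means not detectable at this depth. Without the 80-cell clonotype, the log2 ratio of Anxa1 between CD4 and CD8 classes was -0.18, against -0.53 with it.

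Over the 20 CD8 clonotypes, S100a6 went with S100a10 (Pearson r = 0.83, Spearman rho = 0.84), with Anxa1 (r = 0.71, rho = 0.54) and with S100a4 (r = 0.69, rho = 0.63). Over the 16 CD4 clonotypes, S100a6 went with S100a10 (r = 0.67, rho = 0.52) and S100a11 (r = 0.66, rho = 0.67), but not with S100a4 (r = 0.04, rho = -0.32) or Anxa1 (r = -0.28). The known binding partners were less tightly linked than S100a6 and S100a10. S100a10 and Anxa2 had r = 0.51 (rho = 0.34) over CD4 and r = 0.54 (rho = 0.55) over CD8 clonotypes. Over CD8 clonotypes that rho was close to the rho of S100a6 and Anxa1. S100a11 and Anxa1 had r = -0.22 (rho = -0.29) over CD4 and r = 0.06 (rho = -0.12) over CD8 clonotypes. Anxa1 had no UMI in 8 of the 16 CD4 and 9 of the 20 CD8 clonotypes, so its values here say little about that pair. The highest r over CD4 clonotypes was that of S100a11 and Anxa2, at 0.72 (rho = 0.56), against 0.30 (rho = 0.48) over CD8 clonotypes. These are descriptions of clonotypes that share 1 library, differ in depth and may differ in mouse of origin, which the labels do not give.

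**Figure D5:**
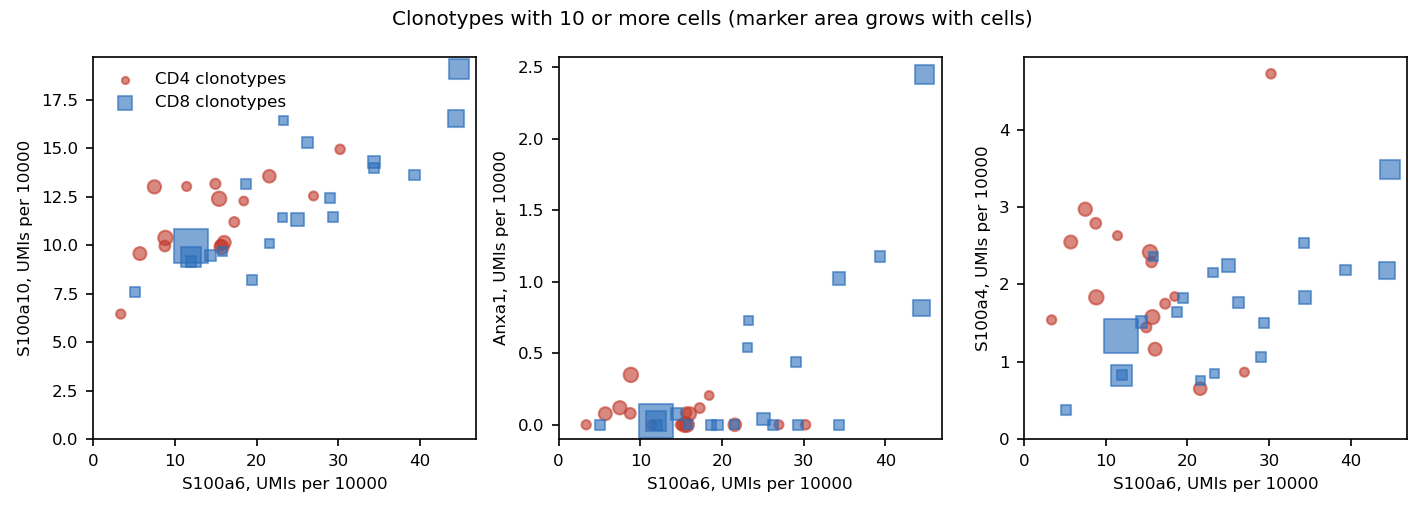
Level of S100a6 (x axis) against S100a10, Anxa1 and S100a4 (y axes), all in UMIs per 10000 UMIs, in 16 CD4 clonotypes (red circles) and 20 CD8 clonotypes (blue squares) with at least 10 class cells; marker area grows with the number of cells. The CD8 clonotypes of 259 and 87 cells sit at 11.9 on the x axis, those of 80 and 54 cells at 44.8 and 44.4, and the 80-cell clonotype stands alone at 2.45 in Anxa1.

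Cycling cells, with at least 2 UMIs of the cycling markers, held more Anxa2 and less S100a11 and S100a6 than the rest in both classes. Anxa2 was at 4.28 (4.09 to 4.48) in cycling and 2.66 (2.54 to 2.79) in non-cycling CD4 cells, and at 5.72 (5.55 to 5.90) in cycling and 4.10 (3.96 to 4.25) in non-cycling CD8 cells. S100a11 was lower, at 5.83 in cycling and 7.86 in non-cycling CD4 cells and at 5.85 in cycling and 7.21 in non-cycling CD8 cells. S100a6 was at 11.04 in cycling and 14.7 in non-cycling CD4 cells and at 20.0 in cycling and 27.1 in non-cycling CD8 cells. S100a4 was at 1.80 in cycling and 1.78 in non-cycling CD4 cells, with overlapping intervals, and at 1.57 (1.48 to 1.67) in cycling and 1.85 (1.76 to 1.95) in non-cycling CD8 cells, so it was lower in cycling cells of the CD8 class and level in those of the CD4 class. Cycling cells were deeper, with a median of 8820 UMIs in cycling and 4247 in non-cycling CD4 cells. In the CD8 class the medians were 8742 in cycling and 4215 in non-cycling cells. The cycling call used counts without thinning, so deeper cells pass it more easily, and its part in the depth gap was not tested. Levels per 10000 are relative to the total UMIs of each group.

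Of the other S100 and annexin genes in the table, 19 in number, 4 could be compared between the CD4 and CD8 classes. S100a1 had a ratio of 1.80 (1.22 to 2.67), Anxa11 of 0.829 (0.770 to 0.892), Anxa7 of 0.867 (0.776 to 0.969) and Anxa4 of 0.872, which spans 1. In Csf2-positive over Csf2-negative CD4 cells, S100a1 was at 3.69 (2.06 to 6.39), with 0.164 in Csf2-positive and 0.0445 in Csf2-negative cells. S100a1 had only 152 UMIs over all kept cells, so both of its ratios rest on few UMIs. The macrophage marker and dissociation stress differences of the Csf2 comparison hold here too, and their part was not tested. The neutrophil genes S100a8 and S100a9 had UMIs in 11 and 3 kept cells, and S100a7a, S100z, Anxa8 and Anxa10 had 0 UMIs.

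Of the 10130 genes tested in CD4 over CD8 class cells, 802 (7.92%) were past 1.5-fold higher and 709 lower, and of all genes tested 6.81% were higher and 11.1% lower in Csf2-positive over Csf2-negative CD4 cells, and the counts for the gene lists that follow stand against these shares. Partners and receptors of the 2 families were mostly even. Of 19 such genes 11 were measured, and 1, Plaur, the urokinase receptor of the plasminogen system, was past 1.5-fold in CD4 over CD8 class cells at 4.67 (3.04 to 7.40). Plaur was also at 2.82 (1.71 to 4.50) in Csf2-positive over Csf2-negative cells. Summed macrophage or monocyte markers were higher on the same sides, at 2.22 in CD4 and 1.35 in CD8 class cells (8 of 10 genes higher). They were at 5.34 in Csf2-positive and 1.84 in Csf2-negative cells (7 of 10 genes higher), and their part in the Plaur ratios was not tested. Sri (sorcin), Ahnak, a scaffold that binds the S100A10-annexin A2 complex, and Myh9, the myosin that S100A4 binds, had CD4 over CD8 ratios of 1.13, 1.11 and 0.929. Myh9 was at 0.713 (0.644 to 0.788) in Csf2-positive over Csf2-negative cells, lower like S100a4. The median log2 ratio of this list was 0.02 in CD4 over CD8, against -0.04 over all genes, and -0.11 in the Csf2 comparison, against -0.07.

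Of 15 effector and migration genes, 2 were past 1.5-fold higher and 3 lower in CD4 over CD8 class cells, at a median of -0.07. Capg, an actin filament capping protein, was at 2.50 (2.35 to 2.67) and the hyaluronan receptor Cd44 at 1.75, while the inhibitory receptor Klrg1 was at 0.398 and the galectin Lgals3 at 0.587 (0.563 to 0.611), a ratio close to that of S100a6. In the Csf2 comparison 3 were higher and 2 lower: Lgals3 was at 1.71 (1.56 to 1.87) and Capg at 1.65, while the gut-homing integrin chain Itgb7 was at 0.580. Lsp1, a leukocyte actin-binding protein, was at 0.671 in the Csf2 comparison, inside 1.5-fold.

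Naive, stem-like or tissue exit genes differed in opposite senses in the 2 comparisons. In CD4 over CD8, 5 of 9 measured were past 1.5-fold higher and none lower, with Il7r at 2.50, the transcription factor Tcf7 at 2.14 and the homing receptor Ccr7 at 2.26. In Csf2-positive over Csf2-negative CD4 cells 1 was higher and 5 lower, with the exit receptor S1pr1 at 0.294, Tcf7 at 0.305 and Klf2 at 0.470. Of 12 actin genes, none was past 1.5-fold in CD4 over CD8 and 1 was in the Csf2 comparison, Cnn2 (calponin) at 0.663; 9 of 12 intervals were below 1 in each, where those of 24.0% of all genes were in CD4 over CD8 and 10.9% in the Csf2 comparison. Of the 14 dissociation stress genes, 5 were past 1.5-fold higher in CD4 over CD8 and 6 in the Csf2 comparison, with Atf3 at 3.55 in CD4 over CD8 and 3.97 in the Csf2 comparison.

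Genes whose levels over the 9 clusters without cluster 10 were most like each member were taken from 5951 genes with at least 500 UMIs. For S100a4 they were Wrn, Lsp1 and Washc3 (Pearson r of log2 levels 0.94, 0.93 and 0.93), and for S100a6 Dusp19, Comtd1 and Ctsd (0.97, 0.97 and 0.95). S100a10 and S100a13 shared Pts and Vav1 (0.92 and 0.90 for S100a10, 0.91 and 0.89 for S100a13), with Urod for S100a10 and Sdccag8 for S100a13. For S100a11 they were Vps41, Nmb and Tpp1 (0.98, 0.97 and 0.96). For the annexins they were Gstm5, AA467197 and Klrk1 for Anxa1 (0.88 each), Poldip2, Ranbp9 and Coro2a for Anxa2 (0.96, 0.96 and 0.95), Atp6v0e, Faap20 and Ccdc97 for Anxa5 (0.93, 0.91 and 0.90), and Urm1, Alkbh3 and Smim15 for Anxa6 (0.97, 0.95 and 0.94). With 9 points and 5951 genes searched, values of this size describe these clusters and nothing more. Among the members themselves, S100a10 and S100a13 were the most alike pair (0.88) and S100a6 and S100a10 came next (0.77).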

How the data were processed

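The deposited table holds raw UMI counts (whole numbers, no scaling) for each gene in each barcode; Cell Ranger and mm10 are named in the submitters' processing notes, without a version. Libraries were 10x Chromium 5' version 2, per the labels. The contig table of the TCR library gives the authors' chain, CDR3 and productive calls, with deposited read and UMI counts per contig.

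Cells were kept with at least 500 genes and at most 10% mitochondrial UMIs. Classes used Cd4, Cd8a and Cd8b1 UMIs; cytokine classes were called after thinning each cell to 2000 UMIs. Levels are summed UMIs per 10000, with exact Poisson intervals; ratios have exact conditional binomial intervals and shares Clopper-Pearson intervals, all 95%. With 1 pooled sample no test was made. Background shares use genes that reached 50 UMIs in the classes compared, without the genes that set them. Shares of intervals clear of 1 were not matched for the UMI number of the listed genes. A gene listed at 0 took a class-wide floor of 3 UMIs.

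Clusters were rebuilt (2000 variable genes without TCR and immunoglobulin segments, 30 components, 15 neighbours, Leiden resolution 0.8) and named from fixed markers, so names may differ from those of the study. Doublets were not removed; more than 1 productive TRB chain was found in 232 cells. Clonotypes were cells with exactly 1 productive TRB chain, at least 1 TRA chain and an identical set of chains.

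The members and gene lists were chosen with earlier results of these data known. Named genes are all members, the 3 most like each over clusters, and up to 4 genes per list by the interval bound farthest from 1, in the CD4 over CD8 and Csf2 comparisons. Gene positions are from GENCODE vM21 and promoters from RefSeq. The ratio code was checked on simulated counts. Software comprised matplotlib 3.10.9 for figures, pandas 2.3.3, scipy 1.17.1 for intervals, scanpy 1.11.5 with scikit-learn 1.9.0, leidenalg 0.10.2 for clusters, and numpy 2.4.6 on Python 3.11.15.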

Additional observations from a re-analysis of the deposited data

Results flagged for a closer look

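S100a6 differed in opposite senses with clonal expansion in the 2 classes. The ratio of expanded over single-cell clonotypes was 0.772 (0.735 to 0.811) in the CD4 class and 1.07 (1.04 to 1.11) in the CD8 class, so that the CD4 ratio divided by the CD8 ratio was 0.719. It was picked out because the intervals lie on opposite sides of 1, and the difference was not tested, since the pool is 1 sample. The CD8 side is small: its log2 ratio was -0.05 without cycling cells and 0.01 without the CD8 clonotype of 80 cells, while the CD4 side stayed negative in all 20 alternatives.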

How the results depend on the processing

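The number of members past 1.5-fold was recomputed for each comparison under each alternative; the reported count stands in brackets, and counts within 1.5 times of it are not listed. For CD4 over CD8 (1) it was 0 at a fold of 2 and within clusters, 2 with Cd4 and Cd8 UMIs read after thinning, with clonotypes weighted equally and without the largest CD4 or the next-largest CD8 clonotype, 3 without cycling cells or without the largest CD8 clonotype, and 4 at the lower of the folds tried. For Csf2-positive over Csf2-negative CD4 cells (2) it was 0 at a fold of 2, within clusters and with Cd4 and Cd8 UMIs thinned, and 1 without cells of 2 or more TRB chains, with clonotypes or cells weighted equally, without the top cell, without macrophage-gene cells, without cycling cells, at 1000 or 3000 UMIs, without thinning and with another thinning seed. For Ifng in CD4 cells (0) it was 1 with clonotypes or cells weighted equally, without cycling cells, at 1000 UMIs and at 2 or more cytokine UMIs, and 3 at the lower of the folds tried. For Ifng in CD8 cells (1) it was 0 at a fold of 2, with thinned Cd4 and Cd8 UMIs, with clonotypes or cells weighted equally, within clusters and at 1000 UMIs. For Il17 (2) it was 1 at a fold of 2, 4 at the lower of the folds tried and with clonotypes weighted equally, and 5 with thinned Cd4 and Cd8 UMIs and at 1000 UMIs. For type 2 (3) it was 1 at a fold of 2, at 3000 UMIs, without thinning and with another seed, and 5 with thinned Cd4 and Cd8 UMIs. For Il10 (2) it was 0 at a fold of 2, at 1000 UMIs and with thinned Cd4 and Cd8 UMIs, and 1 at 2 or more Cd4 or Cd8 UMIs, with clonotypes or cells weighted equally, without cycling cells, at 3000 UMIs, without thinning, with another seed and at 2 or more cytokine UMIs. For expanded clonotypes in the CD4 class (2) it was 1 at a fold of 2, at 2 or more Cd4 or Cd8 UMIs, with ratios centred on the median of all genes, without cycling cells and within clusters. For expanded clonotypes in the CD8 class (0) it was 1 with clonotypes weighted equally and without the largest CD8 clonotype, and 2 at the lower of the folds tried. All reversals of a member past the fold were of Anxa1: -0.24 (clonotypes weighted equally) and -0.16 (within clusters) for Csf2, -0.33 (clonotypes weighted equally) for Ifng in CD8 cells, and 0.82 at 1000 UMIs, 0.28 at 3000 UMIs, 0.0736 without thinning and 0.51 with another seed for type 2. The causes were not tested. Leaving out single clonotypes was chosen after seeing the data. Depth limits Anxa1 most, with 0 to 6 UMIs in the Il10-, Il17- and type 2-positive classes. No paired analysis was possible because the pool is 1 sample and no groups share replicate numbers.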
